A study of Mus musculus with 2 samples.

Results

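Kainate receptors are ion channels gated by glutamate, and the genes described here encode their 5 subunits, Grik1 to Grik5, together with the 2 auxiliary proteins that bind them, Neto1 and Neto2. The 7 members were found by gene symbol among the 55536 genes of the mouse annotation, and each matched 1 gene identifier. Total RNA was sequenced from the hippocampus of B6CASTF1/J males aged 2 months, F1 hybrids between C57BL/6J and CAST/EiJ. The tissue field of both libraries reads layer of hippocampus, without saying which layer. The 2 libraries, biological replicates 1 and 2, each began from 300 ng of RNA and formed 1 group, with no treated, mutant or other reference group. Both carry the same strain-level donor label, so that they come from separate animals rests on the replicate numbers alone. Levels are therefore given for each library with the mean and SD, and no groups were tested.

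The kainate subunits fall into a pair of functional classes. Grik1, Grik2 and Grik3 encode GluK1, GluK2 and GluK3, which can form working channels on their own, whereas Grik4 and Grik5 encode GluK4 and GluK5, which bind glutamate with high affinity and reach the surface as working channels only together with a subunit of the first class. In the hippocampus these receptors are best known at the synapses of dentate granule cell axons, the mossy fibres, onto CA3 pyramidal cells, where they carry a slow synaptic current and also act in the presynaptic terminal. Neto1 and Neto2 are transmembrane proteins with CUB domains that slow the receptor's closing and alter its affinity for its ligands.

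A stretch of the coding sequence that all 5 subunits share allows the subunits to be set side by side. The lines below give 63 bases of each reference coding sequence in mm10, in the direction of the transcript, from the loop that lines the channel pore. Capitals mark the CAG glutamine codon at the Q/R position, at which adenosine-to-inosine editing of the RNA of Grik1 and Grik2 is known to place arginine in the protein.
Grik1, codon 621 of 905: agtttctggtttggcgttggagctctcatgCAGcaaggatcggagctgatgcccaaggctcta
Grik2, codon 621 of 908: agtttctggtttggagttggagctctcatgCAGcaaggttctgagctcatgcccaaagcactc
Grik3, codon 623 of 919: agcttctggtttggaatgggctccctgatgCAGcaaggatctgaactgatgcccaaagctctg
Grik4, codon 606 of 956: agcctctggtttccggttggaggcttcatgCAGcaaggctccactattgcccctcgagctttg
Grik5, codon 605 of 979: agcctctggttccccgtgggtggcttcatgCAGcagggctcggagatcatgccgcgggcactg
The stretch lies in a single exon in Grik4 (chr9:42547593-42547655, minus strand) and in Grik5 (chr7:25022467-25022529, minus strand). In the other 3 genes it crosses an exon junction, within chr16:87936090-87940574 on the minus strand for Grik1, chr10:49240771-49244361 on the minus strand for Grik2 and chr4:125691177-125693987 on the plus strand for Grik3. Grik1 and Grik2 had the same base at 56 of the 63 positions (88.9%), and Grik3 matched each of them at 51 (81.0%). Grik4 and Grik5 matched at 46 (73.0%). Between the classes 38 to 44 positions matched, or 60.3 to 69.8%. The genome carries the unedited CAG in all 5 genes, and the deposited tables hold no base calls, so the edited share was not analysed here.

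All 7 members were detected, each with at least 1 TPM in each library, beside 57.7% of the 22015 protein-coding genes of the nuclear genome. TPM is a relative abundance per transcript length, which allows genes to be set side by side. The members together received 24059 expected counts in replicate 1 and 23455 in replicate 2, of totals of 31422827 and 31303010. Expected counts are estimates of how many reads came from a gene. The median level of the members was 24.79 TPM, beside a median of 14.7 TPM over the 12697 detected protein-coding genes.

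Grik5, the high-affinity subunit GluK5, had the highest level, with 101.15 TPM in replicate 1 and 97.38 TPM in replicate 2 (99.3 ± 2.67 TPM, SD, n = 2). It ranked 809th of the detected protein-coding genes, with 93.6% of them lower. Neto1 came next, with 73.00 and 54.46 TPM (63.7 ± 13.1 TPM), and had the widest spread between libraries of the 7. Both libraries of Grik5 lay above both of Neto1.

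Grik2, the channel-forming subunit GluK2, had 41.03 and 36.98 TPM (39.0 ± 2.86 TPM), and 79.6% of detected protein-coding genes were lower. Grik4, the other high-affinity subunit, had 25.75 and 23.83 TPM (24.8 ± 1.36 TPM). Neto2 had 18.05 and 17.06 TPM (17.6 ± 0.700 TPM), close to the middle of the detected genes, 55.9% of which were lower. The 3 genes kept this order in each library.

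Grik3 and Grik1 had the lowest levels. Grik3, the subunit of low glutamate affinity GluK3, had 10.32 and 9.66 TPM (9.99 ± 0.467 TPM). Grik1, which encodes GluK1 and in the hippocampus is known mainly from interneurons, had 5.18 and 5.73 TPM (5.46 ± 0.389 TPM) from 384 and 419 expected counts, and 22.9% of detected protein-coding genes were lower. It was the single member with the higher value in replicate 2.

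The order was Grik5, Neto1, Grik2, Grik4, Neto2, Grik3 and Grik1, and in no neighbouring pair did the library ranges overlap. The ratio of the means of neighbours ran from 1.41, for Grik4 over Neto2, to 1.83, for Grik3 over Grik1. With 2 libraries this separation is a description only. A second quantification, which the listings describe as made directly from the reads and not from an alignment to the transcriptome, exchanged one pair: Grik2 had 77.7 and 70.4 TPM, above Neto1 with 68.8 and 57.4 TPM. TPM sums to a fixed total over all entries of a quantification, of which nuclear protein-coding genes held 42.1 and 41.2% in the gene quantification and 74.2 and 74.4% in the second. TPM was higher in the second for 6 of the 7 members, and for Neto1 it was 63.7 TPM in the gene quantification and 63.1 TPM in the second.

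**Figure D1:**
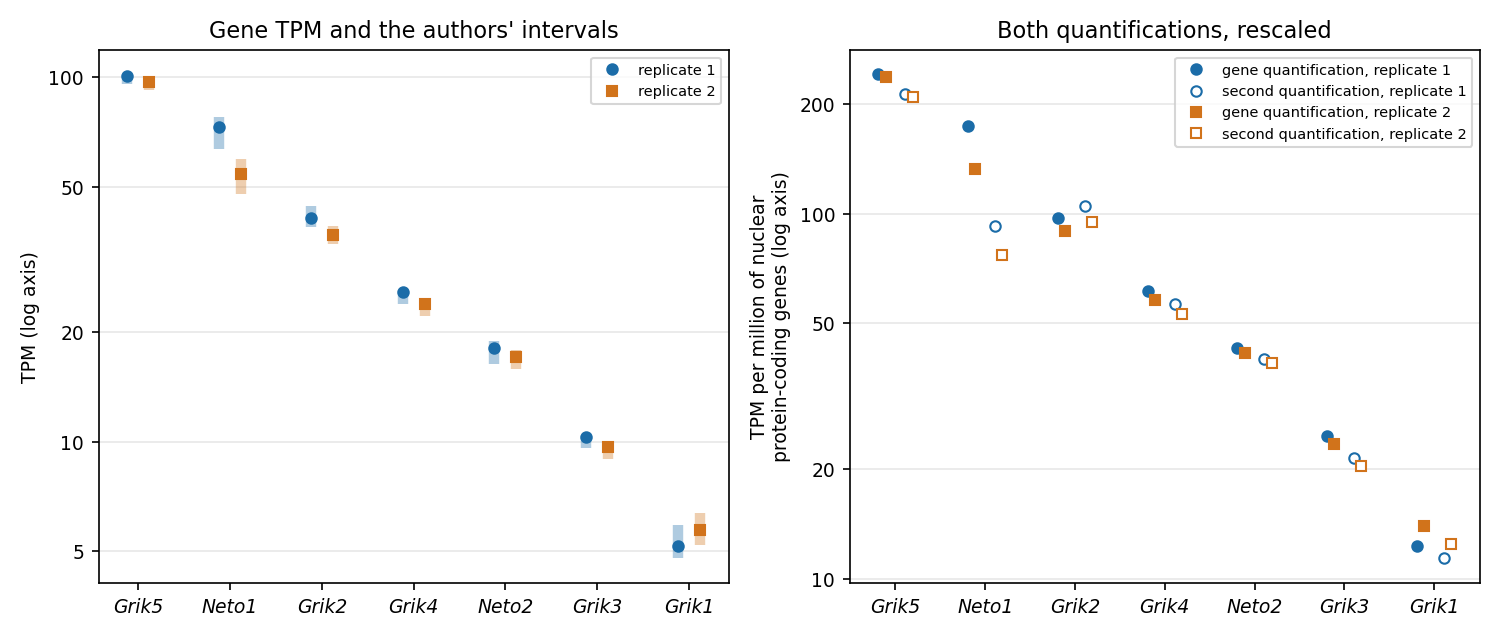
Left, gene TPM of each member per library (points, log axis) with the authors' intervals (bars), which overlap between the libraries for 6 of the 7 members and not for Neto1. Right, TPM rescaled to nuclear protein-coding genes (log axis) per library in the gene quantification (filled) and the second quantification (open), which lie farthest apart for Neto1, at 153 and 85.0 TPM on average.

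The intervals that the authors deposited beside each gene TPM overlapped between the libraries for 6 members. Those of Neto1, 63.6 to 78.0 TPM in replicate 1 and 47.9 to 59.7 TPM in replicate 2, did not. Each interval belongs to a single library and holds no spread between animals, so overlap or its absence is no test of a difference.

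When both quantifications were rescaled to the same fixed sum over nuclear protein-coding genes, 6 of the 7 members differed by at most 0.20 on the log2 scale between them (gene quantification over second). Grik5 had 238 TPM in the gene quantification and 210 TPM in the second, a log2 difference of 0.18. Grik2 had 93.6 and 99.7 TPM, a log2 difference of -0.09. Neto1 stood apart with 153 ± 29.3 TPM in the gene quantification and 85.0 ± 10.9 TPM in the second, a log2 difference of 0.85, and its transcripts are described below.

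The 5 subunit genes summed to 183.43 TPM in replicate 1 and 173.58 TPM in replicate 2 (178.5 ± 6.97 TPM). Grik5 made up 55.6 ± 0.677% of that sum, Grik2 21.8 ± 0.752%, Grik4 13.9 ± 0.219%, Grik3 5.60 ± 0.0431% and Grik1 3.06 ± 0.337%. No share differed between the libraries by more than 1.06 percentage points. The subunits that need a partner were the more abundant class: Grik4 and Grik5 together had 2.24 times the sum of Grik1, Grik2 and Grik3 in replicate 1 and 2.31 times in replicate 2 (2.28 ± 0.0493). In the second quantification the ratio was 2.00 ± 0.0711 and the share of Grik5 52.9 ± 0.976%. These are levels of RNA in a whole tissue. They do not give the make-up of receptors in any cell, and in bulk tissue fewer cells of a type and less RNA per cell cannot be told apart.

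**Figure D2:**
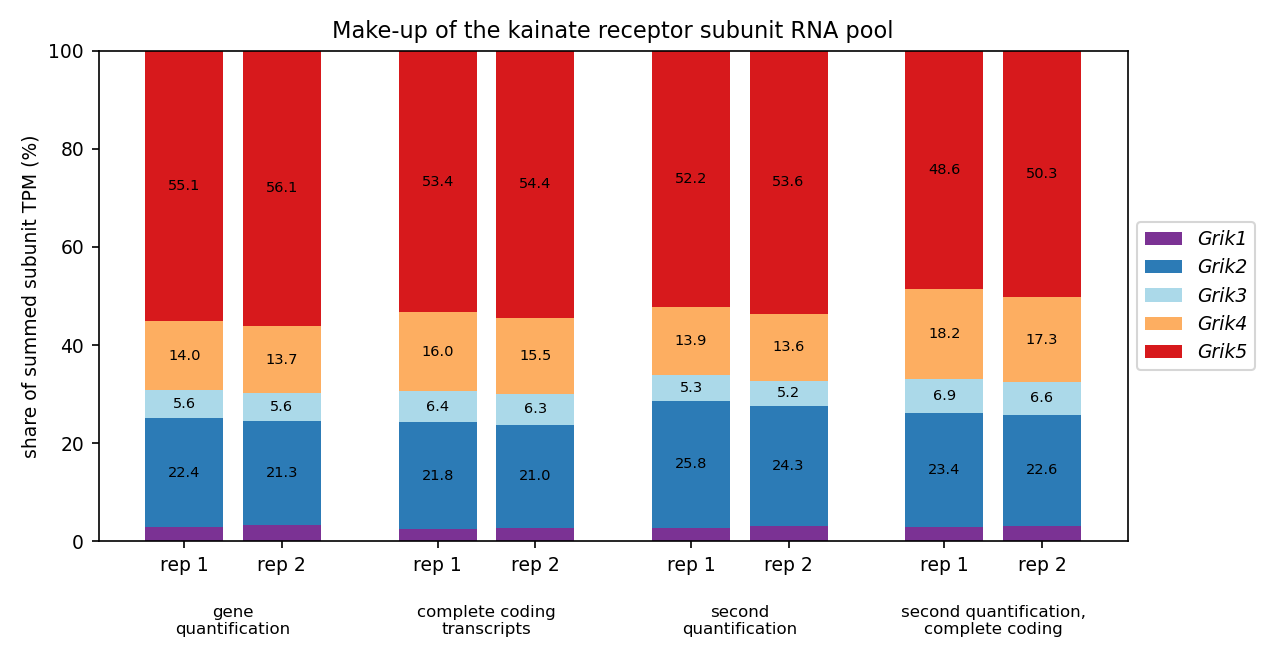
Share of each kainate subunit gene in the summed TPM of the 5, in percent, per library, for the gene quantification, its complete coding transcripts, the second quantification and the complete coding transcripts of the second. Grik5 has the largest share in all 8 columns, with means of 55.6, 53.9, 52.9 and 49.5%. The complete coding transcripts of Grik2 include the 338-codon Grik2-210, which ends upstream of the channel pore.

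Beside the other ionotropic glutamate receptors the kainate family was the smaller. Its summed TPM was 27.1 ± 0.360% of that of the 4 AMPA subunit genes, which totalled 684.39 and 635.57 TPM, and 36.0 ± 0.383% of that of the 7 NMDA subunit genes, which totalled 513.25 and 478.43 TPM. The second quantification gave 28.7 ± 0.778% and 38.6 ± 0.315%. The members' median of 24.79 TPM compared with 171 TPM for the AMPA subunits, of which Gria1 had 295 ± 14.9 TPM and Gria2 had 276 ± 18.9 TPM. The NMDA subunits had a median of 19.5 TPM, led by Grin1 and Grin2a at 175 and 155 TPM.

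The members have 40 annotated transcripts, 24 of them protein-coding, and 21 of those have a coding sequence complete at both ends. The share of a transcript is its TPM as a percent of the gene's TPM. A share of at least 10% in either quantification was reached by 20 transcripts. The other 20 stayed below that share. Of all 40, 5 were listed at 0 in both libraries in the first transcript quantification, and 3 in the second. The transcript with the largest mean share was the same in both quantifications for 4 of the 6 members with more than 1 transcript, beside 75.5% of such detected protein-coding genes, and was another one for Grik2 and Neto2. The mean share differed by over 10 percentage points between quantifications for 4 transcripts, 2 of them of Neto1, 1 of Grik2 and 1 of Grik5.

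**Figure D3:**
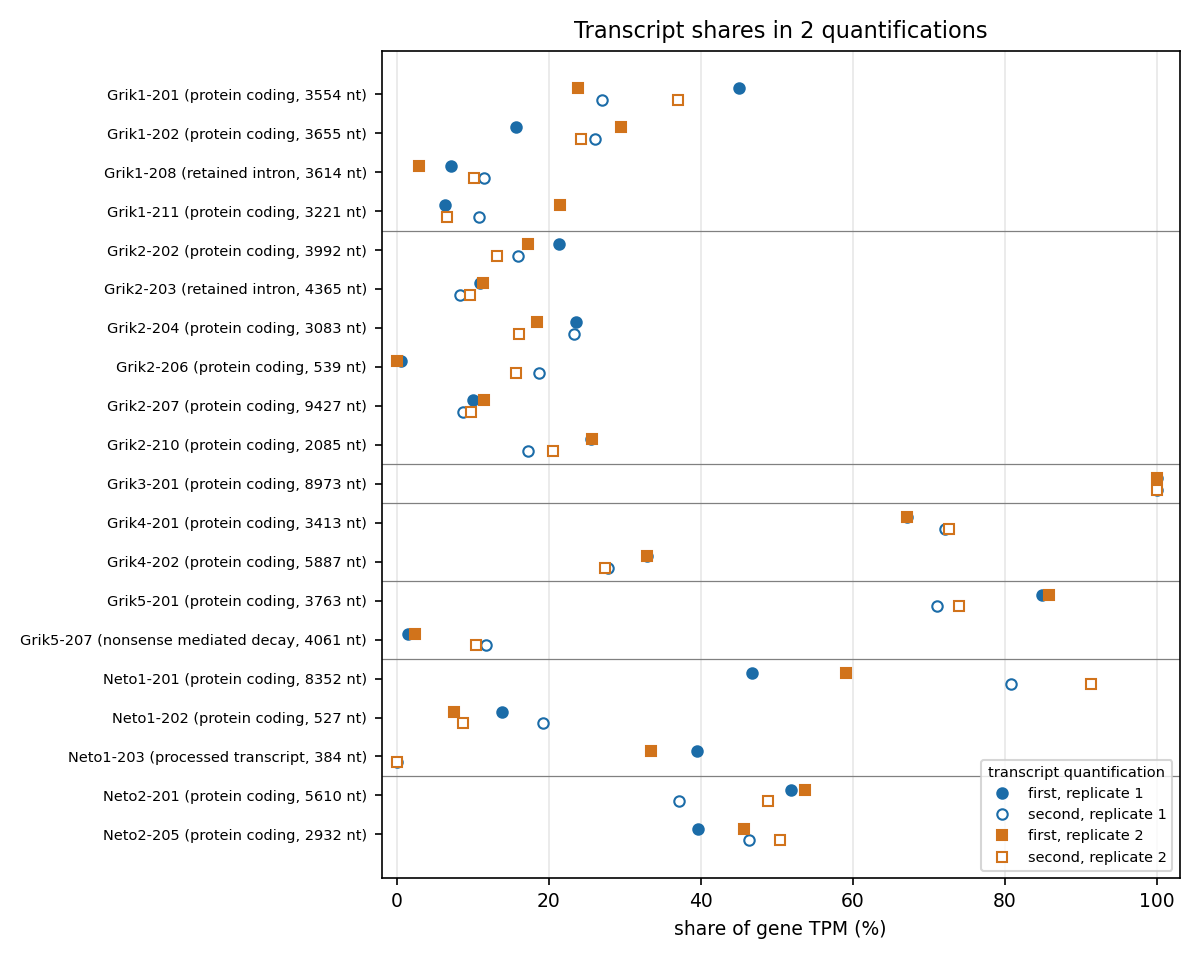
Share of the gene's TPM, in percent, of the 20 transcripts with at least 10% in either quantification, per library. Neto1-203 holds 36.4% on average in the first transcript quantification and 0 in the second, and Grik2-206 holds 0.24% in the first and 17.2% in the second.

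Grik2 (chr10:49094833-49788766, minus strand, 11 transcripts over 694 kb) had its coding transcripts spread over several carboxy-terminal ends, the part of the subunit that faces the cytoplasm and binds scaffold and transport proteins. The lines below give the last 42 coding bases of the 3 ends with the largest shares, with the stop codon in capitals.
Grik2-202, 908 codons: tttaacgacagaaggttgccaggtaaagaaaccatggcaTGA
Grik2-204, 869 codons: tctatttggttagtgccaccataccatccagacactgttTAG
Grik2-210, 338 codons: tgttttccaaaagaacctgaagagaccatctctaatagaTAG
They lie at chr10:49101108-49101149, chr10:49105018-49105059 and chr10:49496095-49496136. Grik2-202 and Grik2-204 have the same first 854 codons and part after them, at the carboxy-terminal tail. Grik2-210 shares 317 codons with Grik2-202 and ends within the extracellular amino-terminal domain, upstream of the channel pore.

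The 908-codon ending, carried by Grik2-202 and Grik2-207, held 30.1 ± 1.90% of the gene's TPM, and the 869-codon ending, carried by Grik2-204 and 1 further transcript, held 29.5 ± 3.31%. Their library ranges overlapped, at 31.4 and 28.7% for the longer and 27.2 and 31.9% for the shorter. In the second quantification the longer held 23.8 ± 1.21% and the shorter 27.6 ± 2.13%, so the order of the endings depends on the quantification. Within each pair the coding sequence is the same, and the transcripts were separated by their noncoding parts alone. Grik2-202 had 19.3 ± 2.89% and Grik2-207 10.7 ± 0.98%, and Grik2-204 had 20.95 ± 3.64%.

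The short Grik2-210 was the leading single transcript in the first quantification, with 25.5 and 25.7% (25.6 ± 0.0899%), and had 18.9 ± 2.31% in the second, where Grik2-204 led with 19.7 ± 5.11%. Grik2-203, a transcript that retains an intron, had 11.1 ± 0.32% and 8.94% in the first and second quantifications. Grik2-206 is a fragment of 539 bases with a coding sequence open at both ends. It had 0.24% in the first quantification, from 1.98 and 0.00 expected counts, and 17.2 ± 2.13% in the second, from 48.4 and 37.7 counts. Its effective length, the adjusted transcript length by which reads are divided, was 440 bases in the first and 204 in the second for replicate 1. The difference is not particular to Grik2-206. Effective length was 99 bases below transcript length in the first quantification, and 341 bases below it for longer transcripts in the second, for replicate 1.

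Grik1 (chr16:87895900-88290265, minus strand) also has 11 transcripts, and their shares differed between libraries and between quantifications. Grik1-201, of 905 codons, had 45.0 and 23.9% in the 2 libraries of the first quantification (34.4 ± 14.9%), the widest spread of the 20 transcripts in that quantification, while Neto2-201 had the widest in the second, and Grik1-202, of 934 codons, had 15.6 and 29.4% (22.5 ± 9.76%). In that quantification replicate 1 was led by Grik1-201 and replicate 2 by Grik1-202. In the second, Grik1-201 led both libraries, with 27.0 and 37.0%, against 26.0 and 24.2% for Grik1-202, so the direction of the difference between libraries in Grik1-201 was reversed. Grik1-211, of 920 codons, had 6.37 and 21.4% (13.9 ± 10.6%).

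Grik1 had the fewest reads of the members. The authors' interval for Grik1-201 was 1.26 to 3.04 TPM in replicate 1 and 0.294 to 2.64 TPM in replicate 2, and that for Grik1-202 was 0.000888 to 1.22 and 0.379 to 2.46 TPM, and for each transcript the intervals of the libraries overlapped. Neither transcript has a 31-base stretch that no other transcript holds. Sums over transcripts were steadier: the 7 protein-coding transcripts held 75.7 ± 1.35% in the first quantification and 77.9 ± 1.59% in the second, and those with a retained intron held the rest.

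Grik3 (chr4:125490700-125714173, plus strand) has 1 annotated transcript, of 8973 bases and 919 codons, which took all of its TPM. It received 2059 and 1980 expected counts, against 2390 and 2272 for Grik4, whose level per length was 24.8 TPM.

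Grik4 (chr9:42518135-42944493, minus strand) has 2 transcripts with the same 956 codons and different starts, 136 kb apart. Grik4-201, from the downstream start, had 67.1% in each library in the first quantification (SD 0.02) and 72.4 ± 0.32% in the second. Grik4-202, from the upstream start, had 32.9% and 27.6%. The SD between libraries was the smallest of any leading transcript in the first quantification among the 6 members with more than 1 transcript. Grik4-201 and Grik4-202 also end at different positions, chr9:42520412 and chr9:42518135. Their shares are those of whole transcripts, so they do not measure use of the starts.

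Grik5 (chr7:25009849-25072346, minus strand, 7 transcripts) was led by its single protein-coding transcript, Grik5-201, of 979 codons. It had 84.9 and 85.9% in the first quantification (85.4 ± 0.655%) and 72.5 ± 1.99% in the second. Transcripts annotated as targets of nonsense-mediated decay held 5.15 ± 0.801% in the first and 16.1 ± 0.755% in the second, of which Grik5-207 had 1.93% and 11.1 ± 0.93%. Grik5-201 alone had 85.91 and 83.61 TPM in the first and 112 and 115 TPM in the second, above the whole-gene level of every other kainate subunit in the same quantification.

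Neto1 (chr18:86394952-86506718, plus strand, 3 transcripts) took 6617 and 6298 expected counts, and nearly all of these fell on its one complete coding transcript. Neto1-201, of 533 codons, received 6336 and 6138 counts, 96.6 ± 1.21% of the gene's counts, but held 46.8 and 59.1% of its TPM (52.9 ± 8.73%). Neto1-203, a transcript of 384 bases with no coding sequence, received 184 and 120 counts, 2.34 ± 0.626% of the gene's counts, and held 39.4 and 33.4% of the TPM (36.4 ± 4.27%). TPM divides reads by effective length, which was 285 bases for Neto1-203 in the first quantification.

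In TPM, Neto1-203 had 28.79 in replicate 1 and 18.19 in replicate 2, and Neto1-202, a coding fragment of 527 bases, had 10.07 and 4.08. Neto1-201 had 34.14 and 32.19 TPM. Of the difference of 18.54 TPM between the libraries at the gene level, 1.95 TPM lay on Neto1-201, 5.99 TPM on Neto1-202 and 10.6 TPM on Neto1-203. In the second quantification, where the effective length of Neto1-203 was 99.7 and 95.8 bases, that transcript was listed at 0 in both libraries and Neto1-201 had 86.0 ± 7.38% of the TPM.

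The short transcript differs little in sequence from the long one. All exons of Neto1-203 lie within exons of Neto1-201, and the difference is a join from exon 3 to exon 7 that leaves out 3 exons of 419 bases. Of its 31-base stretches, 27 (7.63%) are found in no other transcript, against 88.7% for Neto1-201. The antisense gene AC113599.1 overlaps exons of Neto1 by 219 bases and was listed with 0 expected counts in each library, a result that up to 3 true counts each could give.

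**Figure D4:**
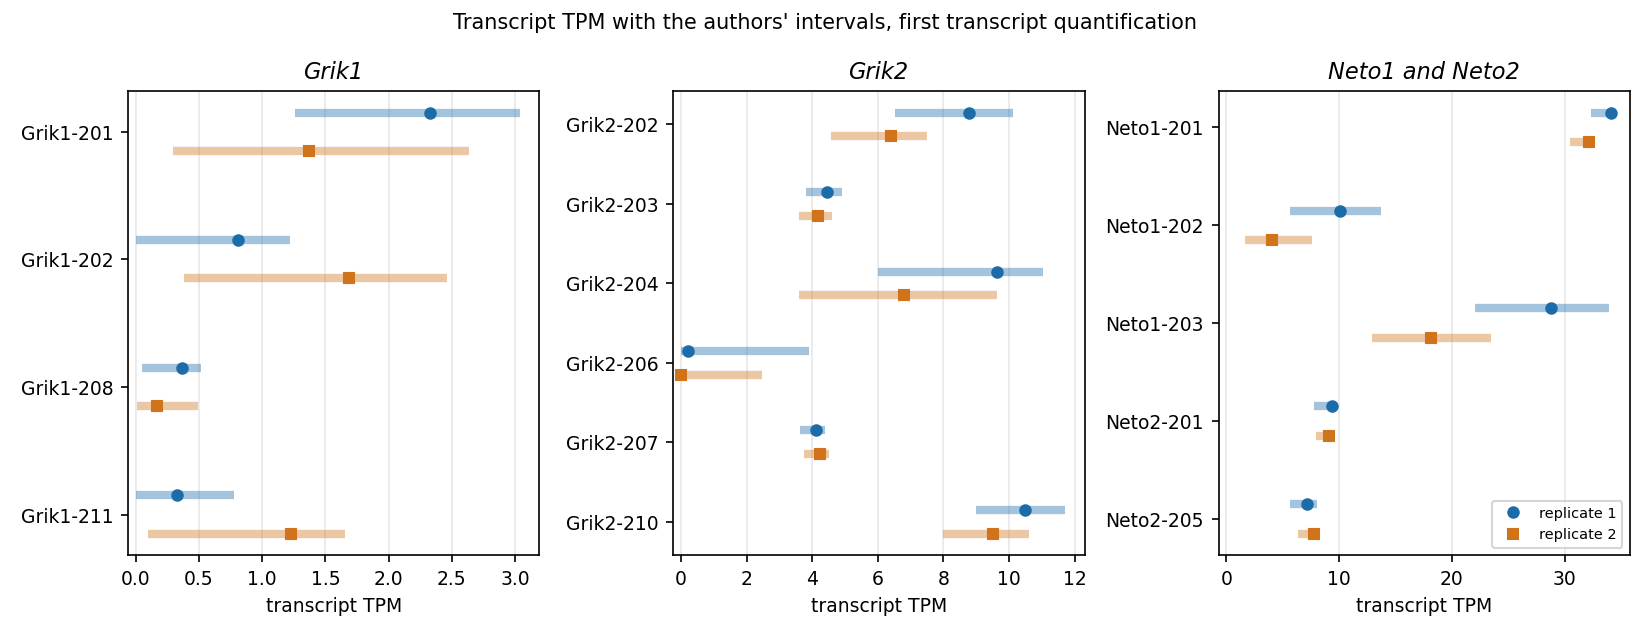
Transcript TPM per library (points) with the authors' intervals (bars) in the first transcript quantification, for the named transcripts of Grik1, Grik2, Neto1 and Neto2. Intervals of the libraries overlap for all but Neto1-201, whose intervals are 32.3 to 34.0 TPM in replicate 1 and 30.4 to 32.1 TPM in replicate 2 and whose points lie just above them.

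Neto2 (chr8:85636588-85700924, minus strand, 5 transcripts) was divided between coding transcripts from a pair of starts that lie 9.95 kb apart. Neto2-201, of 553 codons, begins at the downstream start, and Neto2-205, of 525 codons, at the upstream one. The lines below give their first 42 coding bases, with the start codon in capitals, at chr8:85690932-85690973 for Neto2-201 and across an exon junction within chr8:85674123-85700674 for Neto2-205.
Neto2-201: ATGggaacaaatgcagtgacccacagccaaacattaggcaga
Neto2-205: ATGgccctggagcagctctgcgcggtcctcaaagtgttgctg
The transcripts also differ in exon 5, which has 24 bases in Neto2-201 and 45 in Neto2-205. The line below gives this exon of Neto2-205 (chr8:85663387-85663431), with the 21 bases, or 7 codons, that Neto2-201 lacks in capitals.
Neto2-205, exon 5: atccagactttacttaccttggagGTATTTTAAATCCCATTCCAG

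Neto2-201 had 51.9 and 53.6% of the gene's TPM in the first quantification (52.8 ± 1.22%), and Neto2-205 had 39.7 and 45.6% (42.6 ± 4.2%). The second quantification gave 43.0 ± 8.21% for Neto2-201 and 48.4 ± 2.88% for Neto2-205, so the leading transcript was exchanged. Summed by start, the upstream start held 42.6 ± 4.2% in the first and 52.3 ± 2.57% in the second quantification, and the downstream start held the rest. Transcripts from both starts were assigned reads in both quantifications, and which set had the larger sum depended on the quantification. Neto2-201 and Neto2-205 also end at different positions, chr8:85636588 and chr8:85639432. The sums are those of whole transcripts, so they do not measure use of the starts.

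The 2 start regions differ in base composition. The lines below give the 250 bases before each start from the RefSeq annotation of GRCm38.p6, on the minus strand, with each GGGCGG, the core of the GC box bound by Sp1 factors, in capitals. The downstream RefSeq start lies 36 bases before that of Neto2-201. It is the start of a noncoding transcript, Neto2-202, which is named for its position alone. Neto2-202 held 0.907% of the gene's TPM in the first quantification and 3.92% in the second. As annotated, Neto2-201 begins at its start codon with no noncoding bases before it, and where its RNA begins was not tested.
Neto2 upstream start, chr8:85700925-85701174: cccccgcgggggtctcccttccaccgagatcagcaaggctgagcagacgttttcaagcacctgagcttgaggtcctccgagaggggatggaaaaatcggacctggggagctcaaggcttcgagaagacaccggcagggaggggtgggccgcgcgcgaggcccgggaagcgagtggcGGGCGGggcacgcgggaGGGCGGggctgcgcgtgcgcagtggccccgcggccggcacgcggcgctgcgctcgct
Neto2 downstream start, chr8:85691010-85691259: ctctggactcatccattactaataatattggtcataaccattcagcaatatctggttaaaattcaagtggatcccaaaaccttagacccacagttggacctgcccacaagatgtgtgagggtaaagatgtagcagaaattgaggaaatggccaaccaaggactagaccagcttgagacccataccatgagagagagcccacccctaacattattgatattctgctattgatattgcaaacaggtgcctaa
With the first 50 transcribed bases included, the upstream region was 72.0% G and C with 36 CpG dinucleotides, and the downstream region was 42.7% G and C with 0 CpG. Over all 32851 promoters of the table the medians were 52.7% and 7. GGGCGG, searched on both strands, was found in the upstream region, beside 35.7% of all promoters, and not in the downstream one. TATAAA, also searched on both strands, was found in neither, beside 13.6% of all promoters. A match is a description of the letters and says nothing of binding.

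Neto1 exceeded Neto2 by 4.04 times in replicate 1 and 3.19 times in replicate 2 (3.62 ± 0.602) in gene TPM. In the second quantification the ratio was 2.15 ± 0.240. Restricted to complete coding transcripts it was 1.98 ± 0.116 in the first quantification and 1.94 ± 0.165 in the second. Neto1 was the higher under each of these measures, and the size of its excess moved by over 1.5 times. The same restriction left the ratio of Grik4 and Grik5 to Grik1, Grik2 and Grik3 at 2.30 in the first and 2.05 in the second. Both ratios count the short Grik2-210, which ends upstream of the channel pore, on the Grik2 side. Grik2-210 had 9.99 of the 33.6 TPM of complete coding Grik2 transcripts in the first quantification. In the second it had 13.9 of 52.7 TPM. The ratio without it was not analysed here. In gene TPM, Neto1 and Neto2 together came to 0.454 ± 0.0596 of the kainate subunit sum, against 0.312 ± 0.0199 in the second quantification and 0.317 ± 0.00358 with complete coding transcripts of the first.

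Between the libraries no member differed by 2-fold or more, beside 0.273% of 13916 genes with at least 50 expected counts in both. None did so on TMM-scaled counts either, beside 0.115% of genes, or in the second quantification, beside 0.33%. The log2 ratio of replicate 2 over replicate 1 was 0.15 for Grik1, -0.15 for Grik2, -0.10 for Grik3, -0.11 for Grik4, -0.05 for Grik5, -0.42 for Neto1 and -0.08 for Neto2. It lay below 0 for 6 of the 7 members, beside 62.6% of all genes, and the median was -0.10 for the members and -0.04 for all genes, whose SD was 0.20. A ratio at least as far from 0 as that of Neto1 was found for 5.14% of genes. On the TMM scale, which takes no account of transcript length, the ratio of Neto1 was -0.06 and that of Grik2 -0.08, and 4 of the 7 members lay below 0.

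The rounded counts of the libraries differed by more than sampling noise over all genes, with a chi-square statistic of 4.09 per degree of freedom. This does not tell separate animals from separate library preparations. For single members the statistic was 6.65 for Neto1, 5.48 for Grik2, 2.53 for Grik4, 1.67 for Grik1, 1.24 for Grik3, 0.718 for Grik5 and 0.0345 for Neto2. At a given ratio the statistic grows with read count, so it does not rank the members by size of difference. Grik1, with 401.5 counts on average, had a log2 ratio of 0.14 on the TMM scale. Neto1, with 6457.5 counts, had -0.06.

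Genes that act with kainate receptors were present. For scale, 57.7% of all protein-coding genes reached 1 TPM in both libraries. All 7 scaffold genes were detected, with a median of 34.8 TPM, led by Dlg4, which encodes PSD-95, at 358 ± 5.94 TPM and Ctnnb1, which encodes beta-catenin, at 221 ± 1.39 TPM. C1ql2 and C1ql3, secreted proteins that recruit kainate receptors to mossy fibre synapses, had 39.7 ± 1.74 and 73.4 ± 4.21 TPM, and their neurexin partner Nrxn3 had 73.5 ± 1.20 TPM. The RNA editing enzymes Adar and Adarb1 had 49.98 ± 5.64 and 43.2 ± 2.14 TPM. Of the 8 listed modification and turnover genes, 1 was not analysed here and the other 7 were detected, with a median of 63.4 TPM, led by Camk2a at 1437 TPM and Prkca at 97.8 TPM.

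The tissue label was set beside marker lists, with 57.7% of all protein-coding genes detected by the same rule. All 6 dentate granule cell markers, all 6 CA3 and all 6 CA1 pyramidal cell markers and all 10 GABAergic interneuron markers were detected, with medians of 40.1, 27.2, 34.8 and 26.0 TPM. Glial markers were detected too, with medians of 135 TPM for astrocytes and 117 TPM for oligodendrocytes. None of the 4 cerebellar markers was detected (median 0.108 TPM), while 2 of 4 striatal, 2 of 5 choroid plexus, 4 of 4 thalamic and 4 of 4 neocortical markers were, with medians of 1.89, 0.425, 8.32 and 10.2 TPM. The part that neighbouring tissue has in the members' levels was not tested.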

How the data were processed

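Total RNA of 2 hippocampus libraries of 1 group was measured, with 31422827 and 31303010 expected counts in all. Gene values and a first set of transcript values were made from a transcriptome alignment, and a second set of transcript values straight from the reads, with mm10 and GENCODE M21, per the deposited listings. Column layouts are those of RSEM and kallisto, per the file headers; which programs and versions were run is not given in the sources used here. Deposited expected counts estimate how many reads a gene or transcript received and can be fractional. The deposited TPM scales abundance per length to a fixed sum, spike-ins included. The deposited FPKM, per kilobase and depth, was used as an alternative scale. The deposited isoform percent is each transcript's share of its gene's TPM, and it was recomputed here from TPM for both quantifications. The reference is that of C57BL/6J, so CAST/EiJ reads may map less well, and what this does to the members was not measured.

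Members were taken by symbol and joined by gene identifier. Members and gene lists were chosen with earlier results of these data known. All members were named, with their transcripts of at least 10% mean share in either quantification, and at most the 2 highest genes of each other list, or all of a list of up to 3. Detection meant 1 TPM or more in each library. Ratios between libraries used genes with at least 50 expected counts in both, on TPM and on rounded counts scaled by TMM in edgeR 4.0.16 or by size factors in DESeq2 1.42.0 under R 4.3.3; the step was tested on simulated data. Chi-square statistics used rounded counts. Stretches of 31 bases were compared across all annotated transcripts. Where no count was seen, up to 3 counts are allowed for, which covers counting error only. With 1 group, no p-values were computed. Complete coding transcripts as an alternative were chosen after seeing the data. Promoter sequences came from RefSeq (GRCm38.p6) and were examined for 5 of the 7 members, of which those of Neto2 are given.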

Additional observations from a re-analysis of the deposited data

Results flagged for a closer look

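Reads also fell on other annotated genes that lie within the members, none of which shares exon bases with them. Each count below is the mean expected count of the 2 libraries and is above the 3 counts that a count of 0 allows. Within introns of Grik2 and on its strand, Gm47022 had 53.5 counts, Gm47017 51.5, Gm47023 31, Gm47016 29.5, Gm26543 25.5 and Gm47018 6.5. Ftl2-ps, a processed pseudogene within Grik3 on the same strand, had 61.33 counts, and reads from its parent gene family could be assigned to it. Reads of these entries and of unspliced Grik2 or Grik3 RNA were not told apart here.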

How the results depend on the processing

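With 2 libraries the SD is a poor estimate of spread. How firmly transcripts with few own bases can be divided at this depth was not tested. Neither Grik1-201 nor Grik5-201 has a stretch that no other transcript holds. The SD of their shares in the first quantification was 14.9 and 0.655 percentage points. The mean share of Grik5-201 was 85.4% in the first quantification and 72.5% in the second. The number of members detected stayed at 7 and the number 2-fold apart between libraries at 0 under every alternative run. The median member level was 40.7 TPM in the second quantification, 59.5 TPM after rescaling to nuclear protein-coding genes and 18.0 as FPKM, against 24.79 TPM, and 23.8 to 25.8 TPM with either library left out. The subunit sum was 295 TPM in the second quantification, 157.4 TPM with protein-coding transcripts and 157.3 TPM with complete coding transcripts (173.6 to 183.4 TPM by library). The share of Grik5 was 52.9, 53.9 and 53.9% in the same order (55.1 to 56.1% by library). The ratio of Grik4 and Grik5 to the other subunits was 2.00 in the second quantification (2.24 to 2.31 by library). Neto1 over Neto2 was 2.15, 2.41 and 1.98 in the same order of settings (3.19 to 4.04 by library). The leading transcript of the 6 members with several was kept for 4 in the second quantification, for 5 without replicate 1 and for 6 without replicate 2. Over all genes, the number 2-fold apart was 38 on TPM, 16 on TMM-scaled counts, 16 with DESeq2 size factors, 48 in the second quantification, 265 with a minimum of 10 counts, 2540 with none and 12 on log2(TPM + 1). Of 67 further values of single members and transcripts under settings that kept both libraries, 29 were higher, 36 lower and 2 equal, and 47 moved by at least 1 SD. With 2 libraries, leaving one out cannot move a mean by 1 SD, so those values say nothing of stability. No paired analysis was possible because there was only 1 group.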
